A study of Sus scrofa with 599 samples.

Results

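The SLC2A genes encode the facilitative hexose transporters (GLUT proteins) and KHK encodes ketohexokinase, the enzyme that phosphorylates fructose once it is inside the cell. The genes looked for by symbol were SLC2A1, SLC2A3, SLC2A4, SLC2A5, SLC2A8, SLC2A10, SLC2A12 and KHK. Of these 8 genes, 6 matched a row by symbol among the 21280 protein-coding genes (PCGs) of the expression table, of which 14821 had a symbol. Whether SLC2A1 and SLC2A3 stand among the rows without a symbol was not tested. The expression of SLC2A1 and SLC2A3 was not analysed here, and both genes are described by their chromatin data alone. The set was selected in part on the low level of SLC2A5 in the backfat after weight loss, so the change from weight gain to weight loss in that tissue is given below as values with no test.

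The adipose tissues (ATs) came from female Bama miniature pigs, 2 years old. Visceral ATs (VATs) were taken from the mesentery (MAD), the retroperitoneal depot (RAD) and the greater omentum (GOM), and subcutaneous AT from the upper layer of backfat (ULB). Pigs of the normal condition (NC) ate a normal diet, those of the weight-gain group (WG) a high-fat diet for 22 weeks, and those of the weight-loss group (WL) the same high-fat diet and then 12 weeks at 10% of the normal caloric intake. All pigs were fasted overnight before slaughter, so every level below is that of a fasted animal. RNA was measured in 9, 12, 12 and 5 NC libraries, 45, 36, 39 and 38 WG libraries and 10 WL libraries each of GOM, MAD, RAD and ULB. The labels number the samples but do not name the pig, and p-values measure the spread between these samples.

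GLUT proteins let hexoses cross a membrane down their gradient. In adipocytes, insulin moves SLC2A4 (GLUT4) from internal vesicles to the cell surface, which is the step at which insulin raises glucose uptake, and the glucose taken up supplies the glycerol backbone of stored fat and the carbon for fatty acid synthesis. SLC2A5 (GLUT5) carries fructose and hardly any glucose. SLC2A1 and SLC2A3 carry glucose into most cells without insulin, SLC2A12 (GLUT12) is a second insulin-responsive carrier, SLC2A8 (GLUT8) is held mainly inside the cell, and SLC2A10 (GLUT10) is known for the arterial disease that its loss causes.

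In the RefSeq annotation of Sscrofa11.1, SLC2A5 lies on the minus strand at chr6:69507829-69535794 and SLC2A4 on the plus strand at chr12:52628746-52634965. SLC2A8 lies at chr1:267925184-267934096 and SLC2A12 at chr1:29835964-29901996, both on the plus strand. SLC2A10 is at chr17:48824054-48842811 on the plus strand and KHK at chr3:112021163-112031615 on the minus strand. SLC2A1 is at chr6:168535398-168561170 on the plus strand and SLC2A3 at chr5:62963635-63041955 on the minus strand. The 250 bases before the annotated start were searched on both strands for the E-box CACGTG, the core letters to which the glucose-sensing factor encoded by MLXIPL and other factors of its family can bind, for the GC box GGGCGG and for CCAAT. No 2 matches shared a base. Of the 8 windows, those of SLC2A5 and KHK held an E-box, which 6.4% of all 19556 windows of this length held. GC boxes stood in the windows of SLC2A1, SLC2A3, SLC2A4, SLC2A8 and KHK and in 45.9% of all windows, and CCAAT in that of SLC2A8 and in 31.9% of all windows. The windows of SLC2A10 and SLC2A12 held none of these letters. Both windows with an E-box are printed here 5′ to 3′ on the strand of the gene, with that of SLC2A4, the major insulin-responsive carrier, and that of SLC2A8, which held 5 CCAAT and 4 GC boxes. Capitals mark the matches, and a match on the other strand is read as its complement (CCGCCC or ATTGG). The positions were chr6:69535795-69536044, chr3:112031616-112031865, chr12:52628496-52628745 and chr1:267924934-267925183, in the order shown. A match of letters is a description of the window and not a binding site.
SLC2A5: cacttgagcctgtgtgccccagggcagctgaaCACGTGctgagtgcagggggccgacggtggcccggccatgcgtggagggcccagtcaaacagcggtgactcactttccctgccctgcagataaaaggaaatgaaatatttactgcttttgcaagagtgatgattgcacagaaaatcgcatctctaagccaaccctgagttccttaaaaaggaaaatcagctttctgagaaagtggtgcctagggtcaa
KHK: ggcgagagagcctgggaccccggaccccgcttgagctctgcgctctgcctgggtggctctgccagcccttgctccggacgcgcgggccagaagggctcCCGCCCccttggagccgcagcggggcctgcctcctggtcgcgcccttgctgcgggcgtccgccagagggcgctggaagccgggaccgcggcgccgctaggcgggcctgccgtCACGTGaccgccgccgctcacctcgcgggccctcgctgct
SLC2A4: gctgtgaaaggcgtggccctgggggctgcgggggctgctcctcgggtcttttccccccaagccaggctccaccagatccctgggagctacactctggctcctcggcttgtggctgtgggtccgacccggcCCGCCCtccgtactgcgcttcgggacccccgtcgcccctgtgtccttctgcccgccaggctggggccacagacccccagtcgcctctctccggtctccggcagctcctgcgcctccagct
SLC2A8: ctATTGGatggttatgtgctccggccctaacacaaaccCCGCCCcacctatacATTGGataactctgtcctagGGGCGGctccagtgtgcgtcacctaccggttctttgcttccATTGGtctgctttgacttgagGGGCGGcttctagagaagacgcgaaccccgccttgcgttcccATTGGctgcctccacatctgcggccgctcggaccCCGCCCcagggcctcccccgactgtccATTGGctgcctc

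Libraries held 3337098 to 22939420 estimated counts on PCGs, with a median of 16791660. In 40 libraries, PCGs held under 88% of the summed TPM (length-scaled transcript abundance) of PCGs, lncRNAs and transcripts of uncertain coding potential. These low-share libraries were 17 of 38 in NC, 6 of 158 in WG and 17 of 40 in WL, and they made up 7 of the 9 NC libraries of GOM. Calls that were lost or gained without them are given beside the comparisons. Replicate 35 of WG GOM stood apart, with the fewest counts and a mean correlation of 0.761 with its group, where all other libraries reached at least 0.940. There SLC2A5 and SLC2A10 were listed at 0, SLC2A12 at 0.12 TPM, SLC2A8 at 28.7 TPM and KHK at 41.8 TPM. All 7 adipocyte markers were detected in every library, with group medians of their summed level from 7489 TPM (NC GOM) to 22097 TPM (WL ULB). This sum leans on its most abundant markers, with a median over all libraries of 10242 TPM for FABP4 beside 175 TPM for PNPLA2. In bulk tissue, fewer cells of a type and less RNA per cell cannot be told apart.

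TPM is per transcript length, so levels of different genes can be set side by side. All 6 genes passed the filter on low values in every comparison. SLC2A4 was the most abundant of the 6 genes in all 12 groups, with means of 18.4 to 43.2 TPM. Means ran from 6.96 to 14.2 TPM for KHK, from 2.87 to 8.33 TPM for SLC2A12, from 1.86 to 5.62 TPM for SLC2A10 and from 1.17 to 4.01 TPM for SLC2A8. SLC2A5 had the widest range, from 1.02 TPM in WL ULB to 22.9 TPM in WG ULB.

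**Figure D1:**
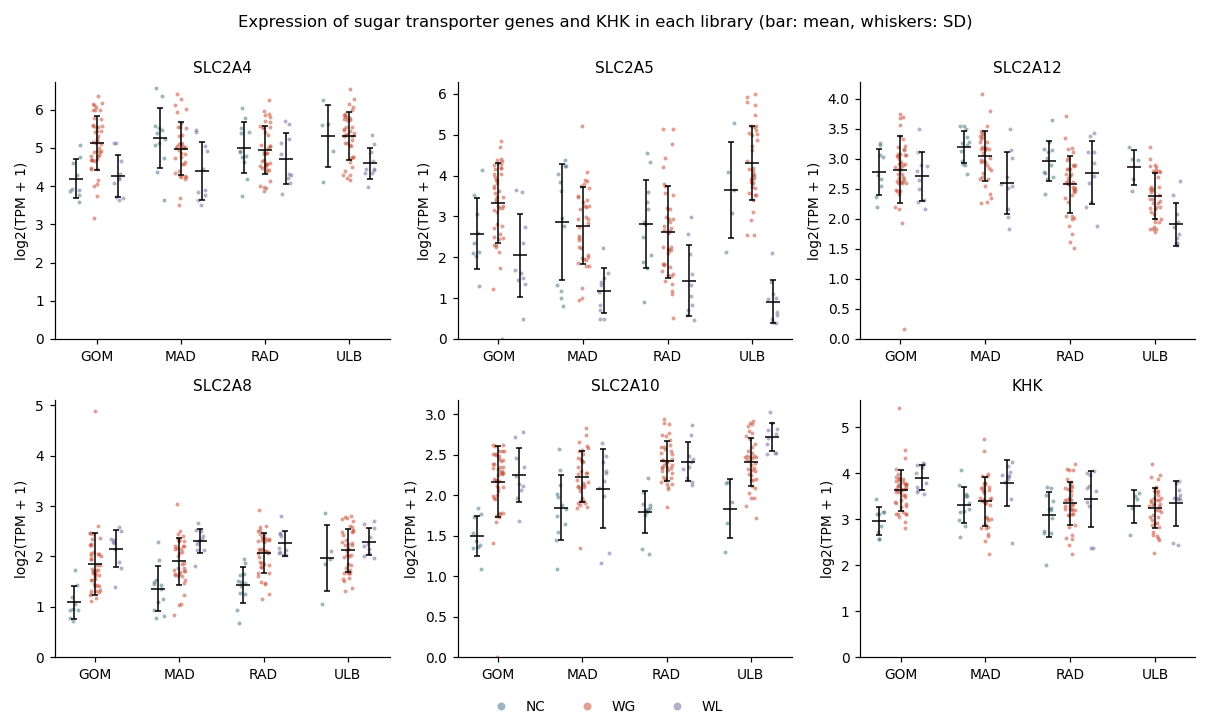
TPM of each library (points, on a log2(TPM + 1) axis) in NC, WG and WL for the 4 ATs, 1 panel per gene, with the mean and the SD of these log values as bars and whiskers. SLC2A5 in WL ULB is the lowest group of its panel, at 0.308 to 3.30 TPM, and the single high points of SLC2A8 (28.7 TPM) and KHK (41.8 TPM) in WG GOM are replicate 35.

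SLC2A5, the fructose carrier, was highest in the backfat of NC and WG pigs and lowest in the backfat of WL pigs. The 5 NC libraries of ULB held 16.1, 7.45, 38.1, 3.41 and 11.6 TPM. The 38 WG libraries of ULB ran from 4.80 to 62.6 TPM, with a median of 15.9 TPM. The 10 WL libraries of ULB ran from 0.308 to 3.30 TPM, with a median of 0.786 TPM and a median of 14 estimated counts. The highest WL value of ULB was therefore below the lowest WG and the lowest NC value of ULB, and the groups did not overlap. The mean was 22.9 ± 15.5 TPM in WG and 1.02 ± 0.907 TPM in WL, a ratio of 22.5, and 15.3 ± 13.6 TPM in NC, a ratio to WL of 15.03. These contrasts chose the gene and carry no test. Of all PCGs tested, 8.12% were called in ULB from WG to WL by the rule given below, and the share whose groups did not overlap was not counted.

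The median summed level of the adipocyte markers was higher in WL ULB, where SLC2A5 was lowest, than in WG ULB. It was 8601 to 31741 TPM in WG ULB, with a median of 14914 TPM, and 16197 to 31182 TPM in WL ULB, with a median of 22097 TPM. FABP4 weighs most in this sum, and the single markers were not compared between the groups. Of the other lists, the 3 neutrophil markers had a median sum of 165 TPM in WG ULB and 40.6 TPM in WL ULB, and the 4 red-cell markers 903 TPM and 1408 TPM. Within groups, SLC2A5 followed the red-cell list with r = 0.41, the neutrophil list with r = 0.26 and the adipocyte list with r = 0.08 over 236 libraries, which share depth and composition, and the part of these cells in its level was not tested.

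In the VATs the groups of SLC2A5 overlapped. In NC it ran from 1.44 to 16.7 TPM in GOM, with a median of 4.07, from 0.760 to 19.8 TPM in MAD, with a median of 9.03, and from 0.872 to 22.5 TPM in RAD, with a median of 6.16. In WG the medians were 10.1 TPM in GOM, 6.36 TPM in MAD and 5.02 TPM in RAD. In WL they were 2.17 TPM in GOM (0.406 to 11.5), 1.36 TPM in MAD (0.408 to 3.71) and 1.29 TPM in RAD (0.382 to 6.91). All 10 WL libraries of MAD lay below the WG median of MAD, as did 9 of 10 in RAD and 8 of 10 in GOM. The means by AT were in the order ULB, MAD, RAD and GOM in NC, ULB, GOM, RAD and MAD in WG, and GOM, RAD, MAD and ULB in WL. The WL mean of GOM was 4.24 TPM with the 6 low-share libraries of that group and 1.48 TPM without them.

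SLC2A4, the insulin-responsive glucose carrier, was lowest in the omentum of NC pigs and in all ATs of WL pigs. The 9 NC libraries of GOM ran from 11.05 to 32.4 TPM, with a median of 14.2 TPM, and the 45 WG libraries from 8.01 to 80.4 TPM, with a median of 33.8 TPM. NC medians were 38.8 TPM in MAD (11.5 to 92.9) and 28.8 TPM in RAD (12.4 to 64.6), and the 5 NC libraries of ULB held 47.9, 29.3, 75.5, 16.3 and 47.2 TPM. WG medians were 31.01 TPM in MAD, 27.9 TPM in RAD and 40.4 TPM in ULB. WL medians were 17.3 TPM in GOM, 17.3 TPM in MAD, 23.2 TPM in RAD and 20.6 TPM in ULB. All groups overlapped in each AT. In ULB, all 10 WL libraries lay below the WG median, at 14.9 to 39.3 TPM.

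SLC2A12, the second insulin-responsive carrier, had its highest mean in NC MAD, 8.33 ± 1.72 TPM, and its lowest in WL ULB, 2.87 ± 1.08 TPM. In ULB the 5 NC libraries held 6.89, 5.32, 6.95, 4.52 and 8.18 TPM, the WG libraries 2.44 to 8.21 TPM with a median of 4.04 TPM, and the WL libraries 1.94 to 5.17 TPM with a median of 2.50 TPM. Of the 10 WL libraries of ULB, 5 lay below every WG library.

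SLC2A8, which is held mainly inside the cell, and SLC2A10 had low levels, with higher means in WG and WL than in NC in all 4 ATs. For SLC2A8 in ULB this order rested on the low-share libraries. Without them its ULB means were 4.17 TPM in NC (3 libraries), 3.55 TPM in WG and 3.88 TPM in WL. In GOM, SLC2A8 ran from 0.653 to 2.29 TPM in NC, with a median of 0.942 TPM, from 1.15 to 28.7 TPM in WG, with a median of 2.31 TPM, and from 1.62 to 4.998 TPM in WL, with a median of 3.86 TPM. Without replicate 35 the WG mean of SLC2A8 in GOM was 2.57 ± 1.03 TPM in place of 3.15 ± 4.03 TPM. The NC libraries of ULB held 3.30, 2.62, 6.32, 1.07 and 2.87 TPM of SLC2A8, a range wider than that of WL ULB, 2.93 to 5.49 TPM. SLC2A10 in ULB was at 1.45, 2.78, 3.45, 2.14 and 3.46 TPM in NC, 2.29 to 6.57 TPM in WG and 4.68 to 7.12 TPM in WL. Its NC and WL libraries of ULB did not overlap. Of all PCGs, 14.8% were called from NC to WL in ULB, and the share without overlap was not counted.

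KHK, which commits fructose to metabolism, had NC means of 6.96 ± 1.66 TPM in GOM, 9.27 ± 2.90 TPM in MAD, 8.01 ± 2.77 TPM in RAD and 8.93 ± 2.198 TPM in ULB. In GOM it ran from 4.92 to 9.92 TPM in NC, from 6.03 to 41.8 TPM in WG, and from 10.6 to 17.7 TPM in WL, so that the NC and WL libraries of GOM did not overlap. Of all PCGs, 36.1% were called from NC to WL in GOM, and the share without overlap was not counted. In ULB its means were 8.93 TPM in NC, 8.93 TPM in WG and 9.66 TPM in WL, with SDs of 2.198, 2.97 and 2.98 TPM. In WL ULB, KHK was thus above SLC2A5 by TPM, while in WG ULB it was below.

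The change from NC to WG asks what the high-fat diet did in each AT. SLC2A8 rose in all 3 VATs, and SLC2A4 and SLC2A10 rose in GOM. SLC2A12 fell in RAD, and no gene of the set was called in ULB. Each comparison was fitted with edgeR's quasi-likelihood test on the counts of all PCGs that passed a filter on low values, and a call required a fold change above 1.5 and a Benjamini-Hochberg adjusted p below 0.05. In GOM, 3 of 6 genes were called, all higher, where 26.7% of all PCGs were. SLC2A8 rose by 1.17 ± 0.40 (SE) on the log2 scale (2.25-fold, adjusted p = 0.018), SLC2A4 by 0.76 ± 0.27 (1.69-fold, adjusted p = 0.020) and SLC2A10 by 0.70 ± 0.20 (1.62-fold, adjusted p = 0.0051). The change of KHK in GOM, 0.52 ± 0.21 (adjusted p = 0.045), was below the fold limit, and that of SLC2A5 was 0.60 ± 0.38 (adjusted p = 0.21). In MAD, 1 of 6 was called against 10.7% of all PCGs. This was SLC2A8, whose change of 0.59 ± 0.21 (adjusted p = 0.040) lay at the fold limit and was not called by DESeq2 or by edgeR's exact test. In RAD, 2 of 6 were called against 16.7% of all PCGs, SLC2A8 with a rise of 0.65 ± 0.18 (adjusted p = 0.0048) and SLC2A12 with a change of -0.65 ± 0.18 (adjusted p = 0.0036). SLC2A10 in RAD, 0.57 ± 0.11 (adjusted p = 6.18e-05), missed the fold limit. In ULB, SLC2A5 was not tested, since its WG libraries were used to choose it, and 0 of the other 5 genes were called by edgeR against 2.38% of all PCGs. There 2 genes had an unadjusted p below 0.05, SLC2A10 (0.61 ± 0.19) and SLC2A12 (-0.66 ± 0.21), and DESeq2 called 1 of them, SLC2A10.

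The median change of the genes tested was 0.65 for GOM, -0.19 for MAD, -0.12 for RAD and -0.13 for ULB, beside medians of all PCGs between -0.01 and 0.01. None of these 6 calls was made without the low-share libraries, which left 2 NC libraries of GOM, 10 of MAD, 6 of RAD and 3 of ULB. Calls over all PCGs fell as well, from 3812 to 402 in GOM, 1477 to 1085 in MAD, 2266 to 844 in RAD and 323 to 47 in ULB. The changes were then 1.43 for SLC2A8, 0.93 for SLC2A4 and 0.90 for SLC2A10 in GOM, 0.51 for SLC2A8 in MAD, and 0.69 for SLC2A8 and -0.61 for SLC2A12 in RAD, with adjusted p from 0.054 to 0.26 by edgeR. With a term for low share in the fit, the change of SLC2A8 in GOM was 2.27 and remained called. Replicate 35 of WG GOM decided none of the 3 calls in GOM, where SLC2A8 changed by 0.87, SLC2A4 by 0.80 and SLC2A10 by 0.75 without it. Summed markers moved in the same comparisons. The median sum of the adipocyte markers in GOM was 7489 TPM in NC and 14110 TPM in WG, and that of the 5 endothelial markers measured was 500 and 728 TPM in GOM, 619 and 734 TPM in MAD, and 619 and 877 TPM in RAD. Within groups, SLC2A8 followed the endothelial list with r = 0.44 over 236 libraries, and the part of these cells in its change was not tested.

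**Figure D2:**
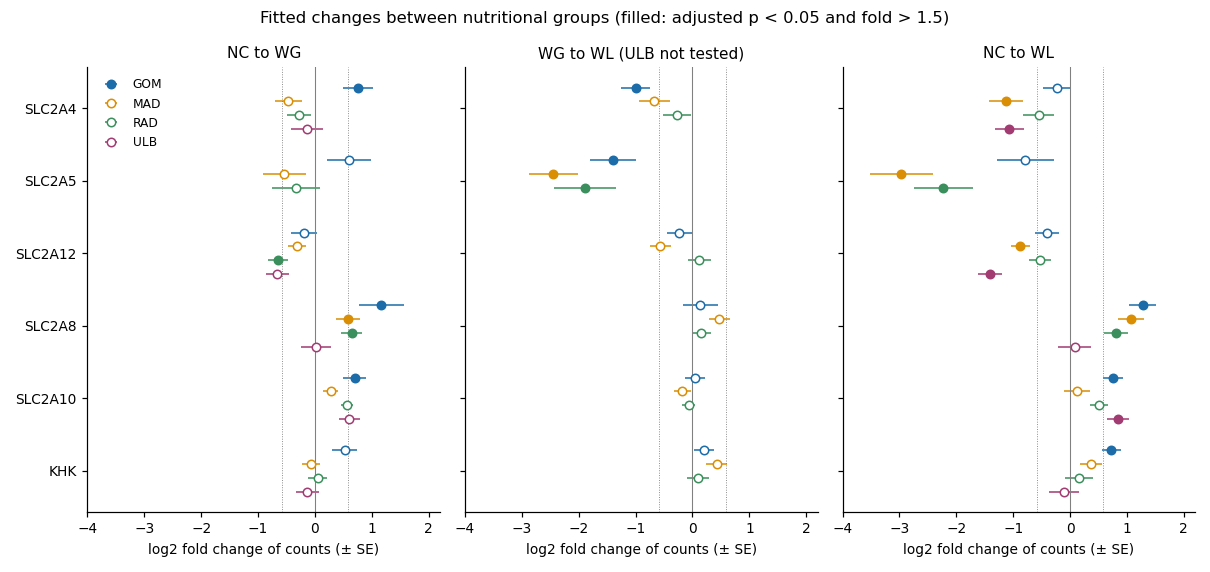
Fitted log2 fold changes of counts with their SE for the 6 genes (rows) and the 4 ATs (colours) from NC to WG, WG to WL and NC to WL; filled points mark calls, and dotted lines mark a 1.5-fold change. SLC2A5 lies farthest to the left from WG to WL (-2.45 in MAD), and its untested changes in ULB are not drawn.

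The change from WG to WL asks what weight loss did after weight gain. SLC2A5 fell in all 3 VATs, and SLC2A4 fell in GOM. The paper took all ATs from each pig, so the VATs came from the pigs whose backfat chose SLC2A5. Tests of SLC2A5 in the VATs are therefore not independent of that choice. In GOM, 2 of 6 genes were called, both lower, against 5.26% of all PCGs. SLC2A5 changed there by -1.40 ± 0.41 on the log2 scale (2.64-fold lower, adjusted p = 0.020 by edgeR) and SLC2A4 by -0.996 ± 0.254 (1.99-fold lower, adjusted p = 0.0074). In MAD, 1 of 6 was called against 17.4% of all PCGs, which was SLC2A5 with -2.45 ± 0.43 (5.45-fold lower, adjusted p = 4.47e-05). In RAD, 1 of 6 was called against 6.37% of all PCGs, again SLC2A5, with -1.89 ± 0.54 (3.71-fold lower, adjusted p = 0.015). In MAD, SLC2A4 changed by -0.67 ± 0.27 (adjusted p = 0.056), a change that DESeq2 and the exact test called, and SLC2A12 (-0.57 ± 0.19, adjusted p = 0.017) and SLC2A8 (0.47 ± 0.18, adjusted p = 0.045) were below the fold limit. Changes of KHK were 0.20 ± 0.17 in GOM, 0.42 ± 0.18 in MAD and 0.11 ± 0.19 in RAD, with adjusted p from 0.067 to 0.75. Without the low-share libraries, SLC2A5 remained called in GOM (-2.95) and RAD (-1.67), and the calls of SLC2A5 in MAD (-1.88, adjusted p = 0.10) and SLC2A4 in GOM (-1.24, adjusted p = 0.093) were lost. WL then kept 4 libraries of GOM and 4 of MAD. Calls over all PCGs went from 731 to 205 in GOM, 2425 to 130 in MAD and 863 to 944 in RAD. Over the 6 genes the median change was -0.10 (GOM), -0.37 (MAD) and 0.02 (RAD), and that of all PCGs -0.04, -0.02 and -0.01.

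In ULB, which was not tested, the ratio of the WL to the WG mean was 0.569 for SLC2A4, 0.657 for SLC2A12, 1.13 for SLC2A8 and 1.28 for SLC2A10. The order of the 6 genes in ULB by mean TPM was SLC2A4, SLC2A5, KHK, SLC2A10, SLC2A12 and SLC2A8 in WG, where the last 3 differed by less than their SDs, and SLC2A4, KHK, SLC2A10, SLC2A8, SLC2A12 and SLC2A5 in WL.

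The change from NC to WL sets the WL pigs against pigs that never gained weight, and shares its libraries with both comparisons above. SLC2A5 was lower in WL in MAD and RAD, SLC2A4 and SLC2A12 in MAD and ULB, and SLC2A8 was higher in the 3 VATs. For SLC2A5 these VAT tests again use the WL pigs whose backfat chose the gene. In GOM, 3 of 6 genes were called, all higher, against 36.1% of all PCGs. They were SLC2A8 (1.27 ± 0.24, adjusted p = 0.00015), SLC2A10 (0.76 ± 0.17, adjusted p = 0.00097) and KHK (0.72 ± 0.17, adjusted p = 0.0011). In MAD, 4 of 6 were called against 33.1% of all PCGs. SLC2A5 (-2.97 ± 0.56, adjusted p = 0.00028), SLC2A4 (-1.13 ± 0.30, adjusted p = 0.0041) and SLC2A12 (-0.87 ± 0.17, adjusted p = 0.00040) were lower there, and SLC2A8 was higher (1.07 ± 0.24, adjusted p = 0.0010). In RAD, 2 of 6 were called against 26.7% of all PCGs, SLC2A5 with -2.23 ± 0.52 (adjusted p = 0.0018) and SLC2A8 with 0.81 ± 0.22 (adjusted p = 0.0052). In ULB, 3 of the 5 genes tested were called against 14.8% of all PCGs. SLC2A12 was 2.66-fold lower (-1.41 ± 0.21, adjusted p = 0.00039), SLC2A4 2.10-fold lower (-1.07 ± 0.26, adjusted p = 0.0083) and SLC2A10 1.80-fold higher (0.85 ± 0.20, adjusted p = 0.0070). The change of KHK in ULB was -0.11 ± 0.27 (adjusted p = 0.81). All adjusted p are from edgeR. Without the low-share libraries 6 of these 12 calls were lost, namely the 4 in MAD (SLC2A5 -2.44, SLC2A4 -0.96, SLC2A12 -0.59 and SLC2A8 0.85), SLC2A8 in RAD (0.76) and SLC2A10 in ULB (0.74), with adjusted p from 0.053 to 0.14. SLC2A8 in GOM, which was kept, was then at 1.964. Calls over all PCGs went from 5214 to 5589 in GOM, 4689 to 1722 in MAD, 3685 to 2049 in RAD and 2048 to 1198 in ULB.

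Whether the change differed between ATs was tested by itself. Among the 3 VATs, the change of SLC2A4 from NC to WG differed (adjusted p = 0.038 by edgeR), at 0.76 in GOM, -0.47 in MAD and -0.28 in RAD. It was 1 of 6 genes, where 6.02% of all PCGs passed. The rise of SLC2A4 in GOM was not called with a low-share term (0.66, adjusted p = 0.14 by edgeR). Nor was it called without the low-share libraries (0.93, adjusted p = 0.26). All tests of this paragraph took libraries of different ATs as independent, although the paper took the ATs from the same pigs. For WG to WL, 0 of 6 genes differed among the VATs and 0 had an unadjusted p below 0.05, against 3.85% of all PCGs. For the 5 genes other than SLC2A5, the change from NC to WG in ULB was set against that of the VATs, and 0 of 5 differed, against 0.555% of all PCGs. An unadjusted p below 0.05 was reached by 1 of them, SLC2A8, whose change was lower in ULB by -0.78 ± 0.34 (adjusted p = 0.38).

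The main tests between ATs within a group took libraries of different ATs as independent, although the paper took the ATs from the same pigs. Calls are given beside the share of all PCGs called in the same pair. SLC2A4 was lower in GOM than in each other AT of NC pigs, and SLC2A12 was lowest in the backfat of WL pigs. In NC GOM the summed adipocyte markers were low as well, with a median sum of 7489 TPM beside 15306 TPM in MAD, 17868 TPM in RAD and 14051 TPM in ULB, and the part of adipocytes in the level of SLC2A4 was not tested. In NC, 1 of 6 genes was called between GOM and MAD (17.7% of all PCGs), which was SLC2A4 with 1.13 ± 0.28 higher in MAD (adjusted p = 0.0066 by edgeR). Between GOM and RAD, 1 of 6 was called (19.5% of all PCGs), again SLC2A4, with 0.90 ± 0.25 (adjusted p = 0.010). Between GOM and ULB, 2 of 6 were called (25.4% of all PCGs), SLC2A4 with 1.13 ± 0.30 (adjusted p = 0.0088) and SLC2A8 with 1.37 ± 0.37 (adjusted p = 0.011), both higher in ULB. For this pair of ATs the replicate numbers met the pairing rule given below, though on only 4 pairs with a median r of 0.133. The labels do not say whether these numbers mark the same pig. With the number as a block the call of SLC2A8 was lost (1.00, adjusted p = 0.19 by edgeR), as it was without NC ULB replicate 7 (1.02, adjusted p = 0.065). Both calls of SLC2A4 in the pairs of GOM with MAD and RAD were lost without the low-share libraries (1.24 and 1.21, adjusted p = 0.29 and 0.23 by edgeR), while those with ULB were kept, at 1.69 for SLC2A4 and 2.33 for SLC2A8. Between MAD and RAD (2.41% of all PCGs), MAD and ULB (7.73%), and RAD and ULB (4.32%), 0 of 6 were called by edgeR, DESeq2 or the exact test. An unadjusted p below 0.05 was reached there by 0, 2 and 1 of the 6 genes. SLC2A5 differed from GOM to ULB by 1.25 ± 0.51 (adjusted p = 0.072) in NC. DESeq2 and the exact test called it, as did the fits without NC ULB replicate 5 (1.44), without NC ULB replicate 9 (1.53) and without the low-share libraries (2.82, adjusted p = 0.028 by edgeR).

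In WG, SLC2A12 was lower in ULB than in MAD by 1.69-fold (-0.76 ± 0.12, adjusted p = 7.36e-08 by edgeR), 1 of 5 genes tested against 14.4% of all PCGs. This was the one call of the 6 AT pairs. From GOM to MAD (6.27% of all PCGs), GOM to RAD (11.2%) and MAD to RAD (5.4%), 0 of 6 were called, and from GOM to ULB (17.9%) and RAD to ULB (9.27%) 0 of the 5 tested. DESeq2 and the exact test made no call in these 5 pairs, and 2, 2, 3, 3 and 2 genes had an unadjusted p below 0.05. SLC2A5, which was not tested in pairs with ULB, had a WG mean of 22.9 TPM in ULB and of 7.45 to 11.01 TPM in the VATs. Between the VATs its WG levels differed by -0.56 ± 0.23 from GOM to MAD (adjusted p = 0.097) and by -0.49 ± 0.26 from GOM to RAD (adjusted p = 0.15), neither called. Without the low-share libraries the difference from GOM to MAD was called (-0.69, adjusted p = 0.018 by edgeR). With the replicate number as a block both were called, at -0.62 (adjusted p = 0.018) and -0.73 (adjusted p = 0.0040).

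In WL, SLC2A12 was lower in ULB than in each VAT, by -1.03 ± 0.20 from GOM (adjusted p = 0.00047 by edgeR), -0.94 ± 0.21 from MAD (adjusted p = 0.0028) and -1.13 ± 0.21 from RAD (adjusted p = 0.0013). SLC2A10 was higher in ULB than in MAD by 0.69 ± 0.20 (adjusted p = 0.016), a call lost without the low-share libraries (0.38, adjusted p = 0.27). These were 1 of 5 genes tested from GOM to ULB (16% of all PCGs), 2 of 5 from MAD to ULB (14.4%) and 1 of 5 from RAD to ULB (4.34%). From GOM to RAD (12.2%) and MAD to RAD (7.31%), 0 of 6 were called by edgeR, DESeq2 or the exact test, with 1 and 0 at an unadjusted p below 0.05. From GOM to MAD (5.97%), edgeR called 0 of 6, with 1 at an unadjusted p below 0.05. That gene was SLC2A5, lower in MAD by -1.61 ± 0.50 (adjusted p = 0.056), which DESeq2 and the exact test called.

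The A-B index scores each 20-kb bin from Hi-C contacts, with positive values in the active compartment A and negative values in the inactive compartment B. It was deposited for all 12 groups (5 to 46 samples each), and each gene takes the bin of its transcription start. KHK (group means of 6.57 to 7.80), SLC2A8 (6.45 to 8.12), SLC2A4 (5.16 to 6.25) and SLC2A5 (3.42 to 4.61) lay well within compartment A. SLC2A3 (1.07 to 2.33), SLC2A10 (1.03 to 2.37) and SLC2A12 (0.72 to 2.40) had smaller means, and all 7 genes were positive in every sample. SLC2A1, the basal glucose carrier, was the one gene with negative means, which it had in GOM (-0.25 in NC, -0.21 in WG and -0.34 in WL). In the other ATs its means were 0.14 to 1.40.

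**Figure D3:**
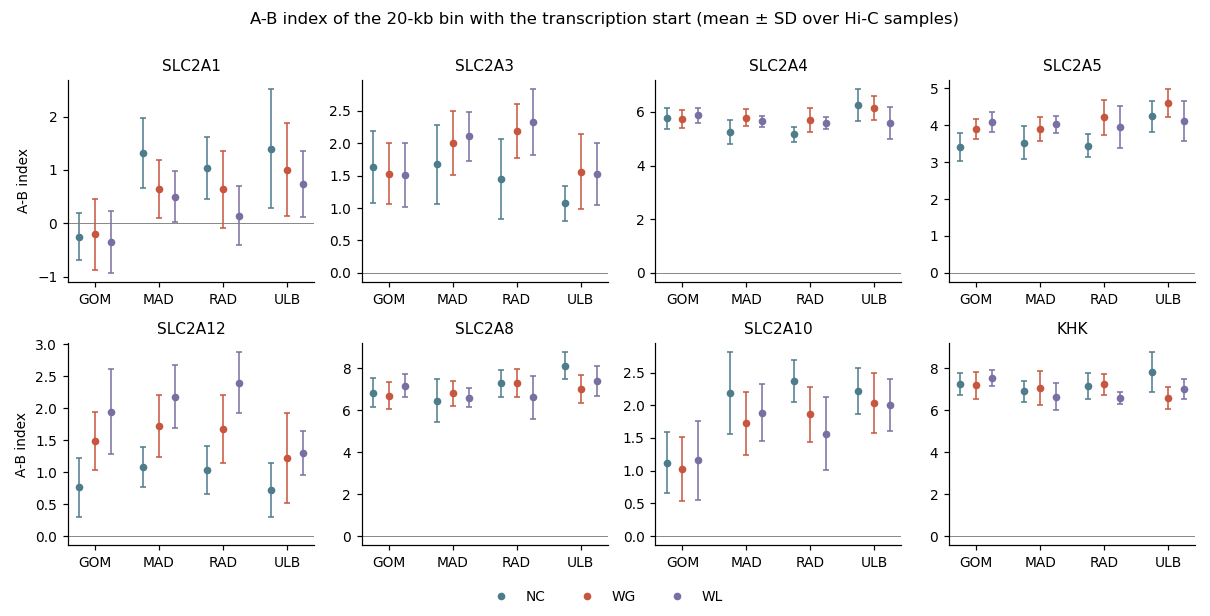
Mean A-B index (no unit, points) and SD (whiskers) over Hi-C samples of the bin of each gene's transcription start, by AT, in NC, WG and WL. SLC2A1 has negative means in GOM (-0.34 to -0.21) and SLC2A12 in RAD is at 1.03 in NC, 1.68 in WG and 2.40 in WL, both steps being past the adjusted p but below the difference limit.

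Bins were called by limma at an adjusted p below 0.05 and a difference above 0.75. From NC to WG, the bin of SLC2A5 had a higher index in RAD (3.45 to 4.21, difference 0.76 ± 0.15 SE, adjusted p = 0.00019), and the bins of SLC2A8 (8.12 to 7.02, difference -1.11 ± 0.30, adjusted p = 0.018) and KHK (7.80 to 6.57, difference -1.23 ± 0.27, adjusted p = 0.0053) had a lower index in ULB. Of the 8 genes, 0 were called in GOM (2.79% of all 113298 bins), 0 in MAD (4.47%), 1 in RAD (4.32%) and 2 in ULB (6.15%). An unadjusted p below 0.05 was reached by 2 genes in GOM and 5 in MAD. Several bins were past the adjusted p with smaller differences. SLC2A12 was higher in WG by 0.72 in GOM, 0.64 in MAD and 0.64 in RAD, and SLC2A5 by 0.47 in GOM and 0.36 in MAD. SLC2A3 in RAD was at 0.747, just under the limit, and SLC2A1 was lower by -0.67 in MAD. The median difference of all bins from NC to WG was 0.136, 0.055, 0.142 and 0.247 in GOM, MAD, RAD and ULB, and with quantile normalization between samples none of the 3 bins was called (SLC2A5 0.47, SLC2A8 -0.62 and KHK -0.76). Without NC ULB replicate 5, the adjusted p was 0.092 for SLC2A8 (-1.10) and 0.10 for KHK (-0.83), and without NC ULB replicate 12 it was 0.12 for SLC2A8 (-0.86). With the mean over all bins of the gene, the difference of SLC2A5 was 0.69, under the limit.

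From WG to WL, 0 of 8 bins were called by limma in GOM (2.53% of all bins), MAD (1.01%) and RAD (3.83%), with 2, 1 and 4 at an unadjusted p below 0.05. In RAD, SLC2A12 (0.73 ± 0.18, adjusted p = 0.0049) and KHK (-0.64 ± 0.16, adjusted p = 0.0047) were past the adjusted p. The bin of SLC2A5, whose expression fell in these 3 ATs, differed by 0.20 ± 0.10 in GOM, 0.14 ± 0.12 in MAD and -0.26 ± 0.17 in RAD (adjusted p from 0.16 to 0.52). In ULB, with no test, it was 4.61 ± 0.377 in WG and 4.13 ± 0.540 in WL and stayed in compartment A in all samples of both groups.

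H3K27ac, a mark of active promoters and enhancers, was available as regions stitched from peaks and ranked by signal over input, in 18 tables with no replicates. Samples were pooled in each table, other than NC MAD and WG group6 RAD, for which the labels list a single H3K27ac sample. WL ULB had fewer samples than either WG table of ULB. WG had several tables, labelled group1 to group6, in each AT 2 or 3. Of the 144 pairs of a gene and a table, 138 had a region within 10 kb of the gene. The paper set this ranking to leave out promoter regions, so a gene with no region may still carry the mark at its start. SLC2A5 had a region in every table other than WL ULB. In ULB its best region was 244.4 kb long in NC and among the top 0.6% of the table's regions, a super-enhancer by the authors' mark. It was 2.4 kb in WG group5, at 95.15% of the ranking, and 42.8 kb in WG group6, at 31.63%. Signal per kb there was higher than that of 69.0% of the table's regions in NC, 23.5% in WG group5 and 12.7% in WG group6. Within 50 kb in NC GOM, a region of 344.8 kb ranked in the top 0.35% of its table. For the region within 10 kb in GOM, the share of regions with less signal per kb was 14.8% in NC, 6.7%, 33.1% and 46.6% in the WG pools and 7.3% in WL.

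SLC2A4 and KHK had stronger marking. The region at SLC2A4 held its transcription start in every table other than WG group5 ULB, and it had more signal per kb than 81.3% to 95.0% of regions in the WG and WL tables, and the region at KHK more than 80.9% to 96.8%. In NC it was part of long stitched regions of 182.8 kb in GOM, 394.8 kb in RAD and 253.6 kb in ULB, and of a region of 13.8 kb at 39.64% of the ranking in MAD. Lengths and ranks come from tables that were stitched separately and have no replicates, so differences between tables are given as values only. The remaining pairs with no region were SLC2A10 in 4 tables and SLC2A8 in WL MAD.

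**Figure D4:**
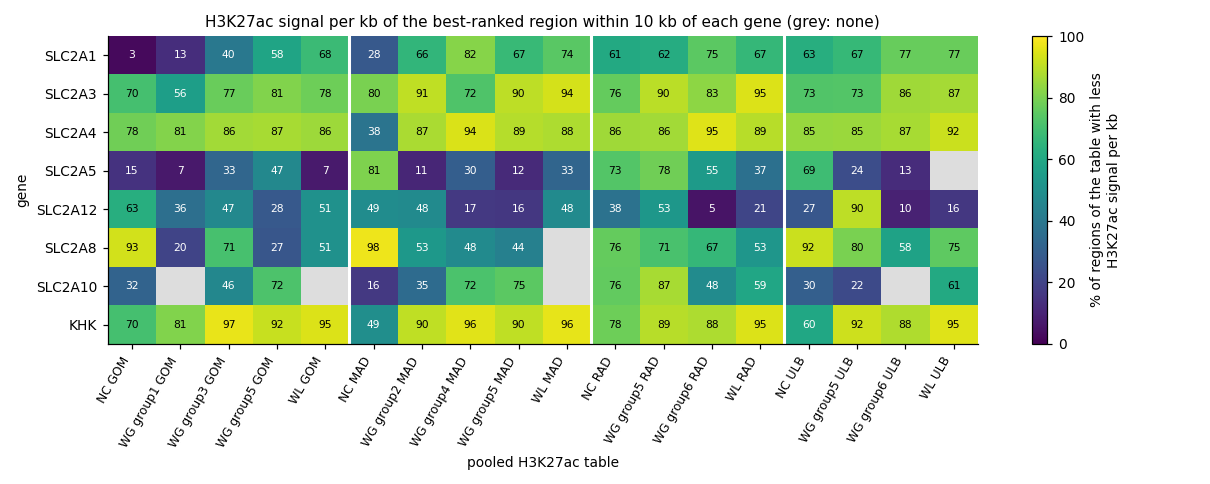
Share (%) of a table's H3K27ac regions that had less signal per kb than the best-ranked region within 10 kb of each gene (rows) in the 18 tables (columns), with grey where no region lay within 10 kb. KHK and SLC2A4 are high in the WG and WL tables (81.3% to 95.0% for SLC2A4), and SLC2A5 has no region in WL ULB.

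Around the transporters, the sugar-responsive factors and the enzymes of glycolysis included genes with larger tested changes than the 6 genes. From NC to WL in MAD, MLXIPL changed by -3.81 and PFKFB1 by -4.75, beside -2.97 for SLC2A5, the largest tested change of the 6 genes. The untested fall of SLC2A5 in ULB is left out of this comparison. Lists were counted over the 11 tested comparisons between nutritional groups, in which 18.01% of all tests of PCGs were called. Of 6 sugar-responsive genes, calls were 3 higher and 15 lower in 55 tests (32.7% called). All 15 lower calls were of MLXIPL and MLXIP and all 3 higher calls of ARRDC4, over comparisons that share libraries. No other gene of this list was called. MLXIPL, which encodes the carbohydrate response element binding protein, fell from WG to WL by -2.29 ± 0.45 in GOM, -2.87 ± 0.44 in MAD and -2.15 ± 0.44 in RAD on the log2 scale (adjusted p = 0.00046, 5.94e-06 and 0.00081 by edgeR). Its mean in MAD was 64.0 TPM in NC, 38.6 TPM in WG and 5.54 TPM in WL. MLXIP, a second factor of this family, changed by -0.998 in GOM, -1.21 in MAD and -0.96 in RAD in the same comparisons, all called lower, and ARRDC4, a target of both, was higher in WG and WL than in NC in GOM (0.67 and 0.81).

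Among 24 genes of hexokinases and glycolysis, 23 calls were higher and 35 lower in 264 tests (21.97% called, beside 18.01% of all). From WG to WL, 1 was higher and 4 were lower in GOM, 0 and 7 in MAD, and 0 and 6 in RAD, where 5.26%, 17.4% and 6.37% of all PCGs were called, with median changes of -0.22, -0.28 and -0.30 beside -0.04, -0.02 and -0.01 for all PCGs. HK1, a hexokinase that traps glucose in the cell, fell there by -1.01 ± 0.15, -1.04 ± 0.15 and -0.70 ± 0.12. PFKFB1, which sets the activity of phosphofructokinase, was called lower in 10 of the 11 comparisons, with -2.25 ± 0.26 from NC to WG in RAD (adjusted p = 2.20e-09 by edgeR). TPI1, triose phosphate isomerase, rose from NC in GOM by 0.68 in WG and 0.77 in WL.

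Of 13 genes for the traffic of GLUT4 vesicles, 4 calls were higher and 14 lower in 143 tests (12.6% called, beside 18.01% of all). RHOQ, a small GTPase of insulin-stimulated vesicle transport, fell from WG to WL by -1.02 in GOM, -1.15 in MAD and -0.68 in RAD. VAMP2, the SNARE protein of these vesicles, was lower in WL than in NC by -1.90 in GOM, -1.87 in MAD and -1.78 in RAD. SLC2A4RG, named for its binding to the SLC2A4 promoter, was higher in GOM in WG (0.98 ± 0.35) and WL (1.16 ± 0.15) than in NC.

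Of 6 fructose and polyol enzymes, 8 calls were higher and 4 lower in 64 tests (18.8% called, beside 18.01% of all). GPD1, which makes glycerol phosphate, rose from NC in GOM by 1.22 in WG and 1.27 in WL, and TKFC, triokinase, by 0.64 and 0.96. SORD, which oxidises sorbitol to fructose, was lower than NC in RAD by -0.70 in WG and -0.94 in WL. Of 9 measured other sugar carriers of 10 listed, 6 calls were higher and 3 lower in 59 tests (15.3% called, beside 18.01% of all). SLC2A13, a carrier of myo-inositol, was higher in WL than in NC in GOM (0.96 ± 0.16) and RAD (0.69 ± 0.19), and SLC2A2, the glucose carrier of liver and gut, was lower in WG than in NC in RAD (-2.30 ± 0.56, means of 5.14 TPM and 1.35 TPM). SLC2A6 was higher in WL than in WG in MAD (1.61 ± 0.29) and lower in WG than in NC in GOM (-1.02 ± 0.25). Lactate and pyruvate carriers, 3 measured of 5, had 5 calls higher and 1 lower in 33 tests (18.2% called, beside 18.01% of all). SLC16A3, which exports lactate, was higher in WG than in NC in RAD (1.37 ± 0.23), and MPC2, a subunit of the mitochondrial pyruvate carrier, in GOM (0.78 ± 0.25). In these lists many calls are from NC in GOM, where 7 of 9 libraries had a low share.

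**Figure D5:**
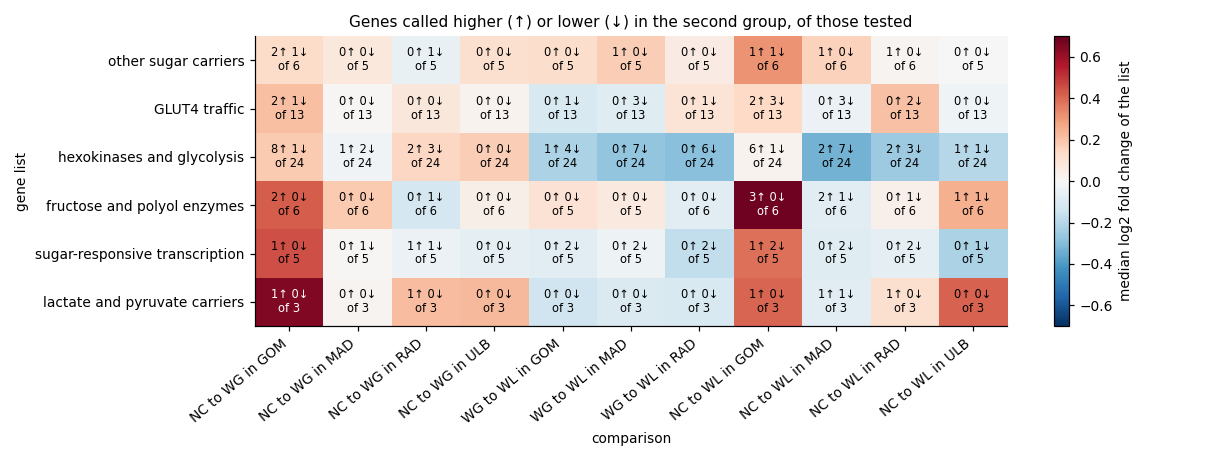
Genes of 6 lists called higher (up arrow) or lower (down arrow) in the second group of each tested comparison, of the number tested, on the colour of the list's median log2 fold change. From WG to WL the glycolysis list has 4, 7 and 6 genes lower in GOM, MAD and RAD and 1, 0 and 0 higher.

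The genes most like SLC2A5 and SLC2A4 across the 12 group means of log2(TPM + 1), among 15067 PCGs, are given as a description. For SLC2A4 they were ACADSB (r = 0.943), TBC1D20 (0.942), TRAP1 (0.934), YBX1 (0.924) and MCCC1 (0.923). For SLC2A5 they were ODAD4 (r = 0.922), AASS (0.922), PPP1R7 (0.918), ENSSSCG00000037808 (0.898) and ENSSSCG00000028892 (0.897). Across 236 libraries and within groups, these r fell to 0.23 to 0.56 for the genes like SLC2A4. For those like SLC2A5 they were 0.49 for ODAD4, 0.30 for AASS, 0.10 for PPP1R7, 0.01 for ENSSSCG00000037808 and -0.08 for ENSSSCG00000028892. Among the 6 genes themselves, the highest within-group r over 236 libraries were those of SLC2A8 with KHK (0.54), SLC2A4 with SLC2A5 (0.44), SLC2A4 with SLC2A12 (0.43) and SLC2A5 with SLC2A12 (0.40). These points share library, depth and tissue composition.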

How the data were processed

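RNA was read by the authors from rRNA-depleted total RNA with a stranded kit, quantified with kallisto 0.43.0 and deposited as estimated counts and as TPM per gene. Estimated counts were rounded here and used for tests, and TPM for levels. The authors also deposited the A-B index of Hi-C bins, a score, and H3K27ac regions with their signal and their rank score, called on the samples of each table together (the labels name BWA 0.7.15 and SAMtools 1.3.1). In each expression table, 9 columns matched no sample and were not used. The paper states that data of 9 pig adipose samples came from a public archive. It also counts more NC libraries of GOM and ULB than the 9 and 5 used here. Results for NC GOM and NC ULB therefore rest on part of the study's libraries. Whether the unused columns hold the missing libraries was not tested.

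PCGs had to reach 0.5 TPM in 80% of the libraries of 1 group to enter edgeR 4.0.16 (quasi-likelihood test) in R 4.3.3, with only the libraries of the groups compared. Alternatives were an unfiltered fit, a replicate block, a low-share term, fits without the low-share libraries or without single NC ULB replicates, the exact test of edgeR and DESeq2 1.42.0. The A-B index was tested with limma 3.58.1, and the scripts were tested on simulated data. Leaving out WG GOM replicate 35 was chosen after seeing the data. Of each pathway list at most 3 genes are named, the called ones with the smallest adjusted p. Members, lists and tests were chosen with earlier results of these data known.

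Replicate numbers were taken to pair ATs only where every pair of same-numbered libraries deviated together with r above 0.1. This held in 4 of 18 pairings, namely GOM with ULB for NC (4 pairs, lowest r 0.104), ULB with MAD (30 pairs, 0.264) or with RAD (33 pairs, 0.102) for WG, and RAD with MAD for WL (10 pairs, 0.241). Counts of 3337098 to 22939420 per library set the precision of low genes, such as SLC2A5 in WL.

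Marker lists of other cell types were summed per library as TPM. Group medians were 336 to 1030 for macrophage, 10.3 to 43.8 for lymphocyte, 500 to 989 for endothelial and 0.94 to 4.33 for skeletal muscle genes, and at most 2.34 for pancreas and intestine genes. WT1, the mesothelial marker measured, was at 40.2 to 71.8 in GOM and at most 0.63 in ULB.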

Additional observations from a re-analysis of the deposited data

Results flagged for a closer look

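In 5 of the 84 groups of 4 to 10 samples examined, 1 sample stood far from the others, where chance flags about 1 in 20 groups. SLC2A5 was at 3.71 TPM in WL MAD replicate 2 (the next library at 2.06 TPM) and at 3.30 TPM in WL ULB replicate 10 (the next at 1.61 TPM). SLC2A8 was at 5.94 TPM in WL RAD replicate 10 (the next at 4.4995 TPM). The A-B index of the bin of SLC2A4 was 5.21 in NC ULB replicate 9 (the next sample at 6.31), and that of SLC2A12 was 0.466 in WL GOM replicate 10 (the next at 1.52).

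The change of SLC2A4 from NC to WG differed among the 3 VATs (adjusted p = 0.038 by edgeR), with a rise of 0.76 in GOM and changes of -0.47 in MAD and -0.28 in RAD that were not called. The test took libraries of different ATs as independent, and the rise in GOM was not called without the low-share libraries.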

How the results depend on the processing

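Of 201 alternative values of the 34 called changes, 169 kept the call, 32 lost it and 0 changed sign. Low-share libraries mattered most, and the cause was not tested: 17 of 31 expression calls were lost without them. Between nutritional groups, calls over all PCGs fell as well in every tested comparison other than WG to WL in RAD and NC to WL in GOM. The losses are therefore not particular to the 6 genes. Calls from NC to WG numbered 6, 3 with a low-share term (SLC2A10 0.44 and SLC2A4 0.66 in GOM and SLC2A12 -0.60 and SLC2A8 0.70 in RAD were lost, and KHK in GOM was gained at 1.13) and 0 without these libraries. Calls from WG to WL numbered 4 and 2 without them, those from NC to WL 12 and 6, and those between ATs in WG 1 and 2. Fewer libraries remained in these fits. Leaving out single NC ULB replicates gave 6 to 6 calls from NC to WG, 12 to 12 from NC to WL and 3 to 5 between ATs in NC. With a replicate block, calls between ATs were 3 in place of 4 in NC, 3 in place of 1 in WG and 5 in place of 4 in WL. Those gained were SLC2A5 from GOM to MAD (-0.62) and to RAD (-0.73) in WG, where 35 of 36 and 37 of 39 same-numbered pairs had r above 0.1 (medians 0.664 and 0.587), and KHK from GOM to ULB in WL (-0.61; 8 of 10 pairs, median 0.161). That is a hint from the data and not from the labels, and these numbers were not taken to pair the libraries. The rule asks for r above 0.1 in every pair, which is harder to meet with more pairs. Other than SLC2A8 in NC, the block ended no call. Called bins of the A-B index numbered 3, 13 with a difference above 0.5, 1 with quantile normalization, and 1 to 3 without 1 NC ULB replicate.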
